A study of Homo sapiens with 6 samples.

Results

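The genes examined here carry MRPL or MRPS symbols, and all but MRPS36 encode proteins of the mitochondrial ribosome. They were taken from the deposited table of gene counts by symbol (MRPL or MRPS, a number and at most 1 letter from A to C), and each had to reach at least 10 counts in 3 or more of the 6 libraries. All 78 genes with such a symbol passed, out of 62754 genes in the table, and all 78 were among the 19874 genes tested. They comprised 49 MRPL genes, named for the large subunit, and 29 MRPS genes, named for the small subunit. RNA had been sequenced from HK-2 cells, an immortalised human proximal tubule line, after Cisplatin treatment. Both groups received Cisplatin (CP), with negative control siRNA in CP+siNC (3 libraries) and with siRNA against NAT10, an RNA acetyltransferase, in CP+siNAT10 (3 libraries). The labels give no dose, time or siRNA sequence, and cells without Cisplatin were not analysed here. The comparison addresses which transcripts differ when NAT10 is depleted in Cisplatin-injured tubular cells.

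Mitochondria translate the few messages of their own genome on a dedicated ribosome. Its rRNAs are made inside the organelle, while every one of its proteins is encoded in the nucleus, translated in the cytosol and imported. Some of these proteins have counterparts in bacterial ribosomes and others are found only in mitochondria, and the messages they help to translate encode core subunits of the respiratory chain, on which proximal tubule cells depend.

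The deposited values were raw counts per gene, with 19321665, 21602988 and 19464027 counts in the CP+siNC libraries and 20793709, 21531774 and 25192736 in the CP+siNAT10 libraries. Among the 78 genes the counts in a single library ranged from 72 to 3969. Levels are given below as CPM, counts relative to library sizes scaled by the trimmed mean of M values (TMM), and fold changes are CP+siNAT10 against CP+siNC. Percentages of the control for single genes come from the fitted fold changes and can differ slightly from the ratio of group means. A gene is called higher or lower where edgeR's quasi-likelihood test, Benjamini-Hochberg adjusted over all 19874 genes, gave an adjusted p under 0.05. Nothing states that the replicates came from separate cultures, so p-values measure only the spread between these samples, which may be technical. That spread was small, with a common biological coefficient of variation of 3.00%, so that small differences passed the test.

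The target itself differed as the labels imply. NAT10 was at 75.8, 71.4 and 73.2 CPM in the CP+siNC libraries and at 41.3, 40.5 and 42.4 CPM in the CP+siNAT10 libraries. Every CP+siNAT10 library was below every CP+siNC library, and the fitted level was 56.5% of the control (log2 fold change −0.82, SE 0.04; adjusted p = 2.8e-15 by edgeR's quasi-likelihood test, Benjamini-Hochberg adjusted). The kidney epithelial list was expressed, with 7 of its 8 genes tested and KRT8 its most abundant gene, whereas CDH1 reached at most 2 counts in a library. Of 13 proximal tubule markers only 6 could be tested. LRP2, which encodes megalin, reached at most 1 count in a library, CUBN, its partner in protein uptake, at most 8, and SLC22A6, an organic anion transporter, was at 0 in all 6 libraries. Other markers of the same list were present: GGT1, an enzyme of the brush border, had 553 to 711 counts in a library, and SLC5A2, a glucose transporter, 160 to 291. The markers thus gave mixed support for the labelled cell type. Of the 6 tested tubule markers, SLC5A2 was higher (log2 fold change 0.31), GGT1 (−0.28) and SLC3A1 (−0.99) were lower, and 3 were not called. The summed level of that list was 88.5% of the control, with each CP+siNAT10 library below each CP+siNC library. Of the 7 tested epithelial genes, 2 were higher, 2 lower and 3 not called.

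The 12 endothelial, immune and fibroblast markers summed to 24.2, 26.1 and 23.3 CPM in CP+siNC and to 25.5, 32.7 and 27.1 CPM in CP+siNAT10. Of the 5 that could be tested, COL1A1 and PTPRC were higher. PTPRC had only 7 to 29 counts in a library, and CP+siNAT10 replicate 2 was highest, at 1.33 CPM against 0.475 and 0.671 CPM in the other CP+siNAT10 libraries. The fibroblast markers LUM and COL1A1 had 207 to 300 and 193 to 337 counts in a library, about as many as SLC5A2. DCN, CDH5 and VWF were at 0 in at least 1 library and reached at most 1, 2 and 4 counts. The part of these markers in the results below was not tested. In bulk RNA, fewer cells of a kind and less RNA per cell cannot be told apart.

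Among the 78 genes, 32 were called, 7 of them higher and 25 lower, and 46 did not pass the test. The share called was 41.0%, against 44.1% of all tested genes, so being called was about as frequent as elsewhere. The members had smaller standard errors than all tested genes (medians 0.052 and 0.088), so these shares were not taken at equal precision. The direction was unequal. Only 8.97% of the 78 genes were higher, where 21.8% of all tested genes were, and 32.1% were lower, where 22.3% of all tested genes were. Groups did not overlap for 10 genes that were higher (25.7% of all tested genes) and for 27 that were lower (25.7% of all tested genes). The balance of calls depended on the scaling: with library size alone, 12 were higher and 17 lower, while over all tested genes 5050 were higher and 3786 lower in place of 4331 and 4440. With a trend in gene length removed, 12 members were higher and 21 lower, and over all tested genes 4151 and 4395.

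The changes were small. The median log2 fold change was −0.054 over the 78 genes, with the middle 50% between −0.14 and 0.032, whereas the median over all tested genes was 0.0070 and its middle 50% ran from −0.21 to 0.21. For 76 of the 78 genes the whole 95% interval lay within a 1.5-fold change in either direction, which was the case for 63.9% of all tested genes. The other 2 were MRPL42 and MRPS7, the members with the largest changes. Standard errors ran from 0.033 to 0.13 on the log2 scale. Their median was 0.052, against 0.088 over all tested genes, and the median level was 32.7 against 10.4 CPM. The members were measured more precisely, so the share of intervals within 1.5-fold also reflects precision.

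**Figure D1:**
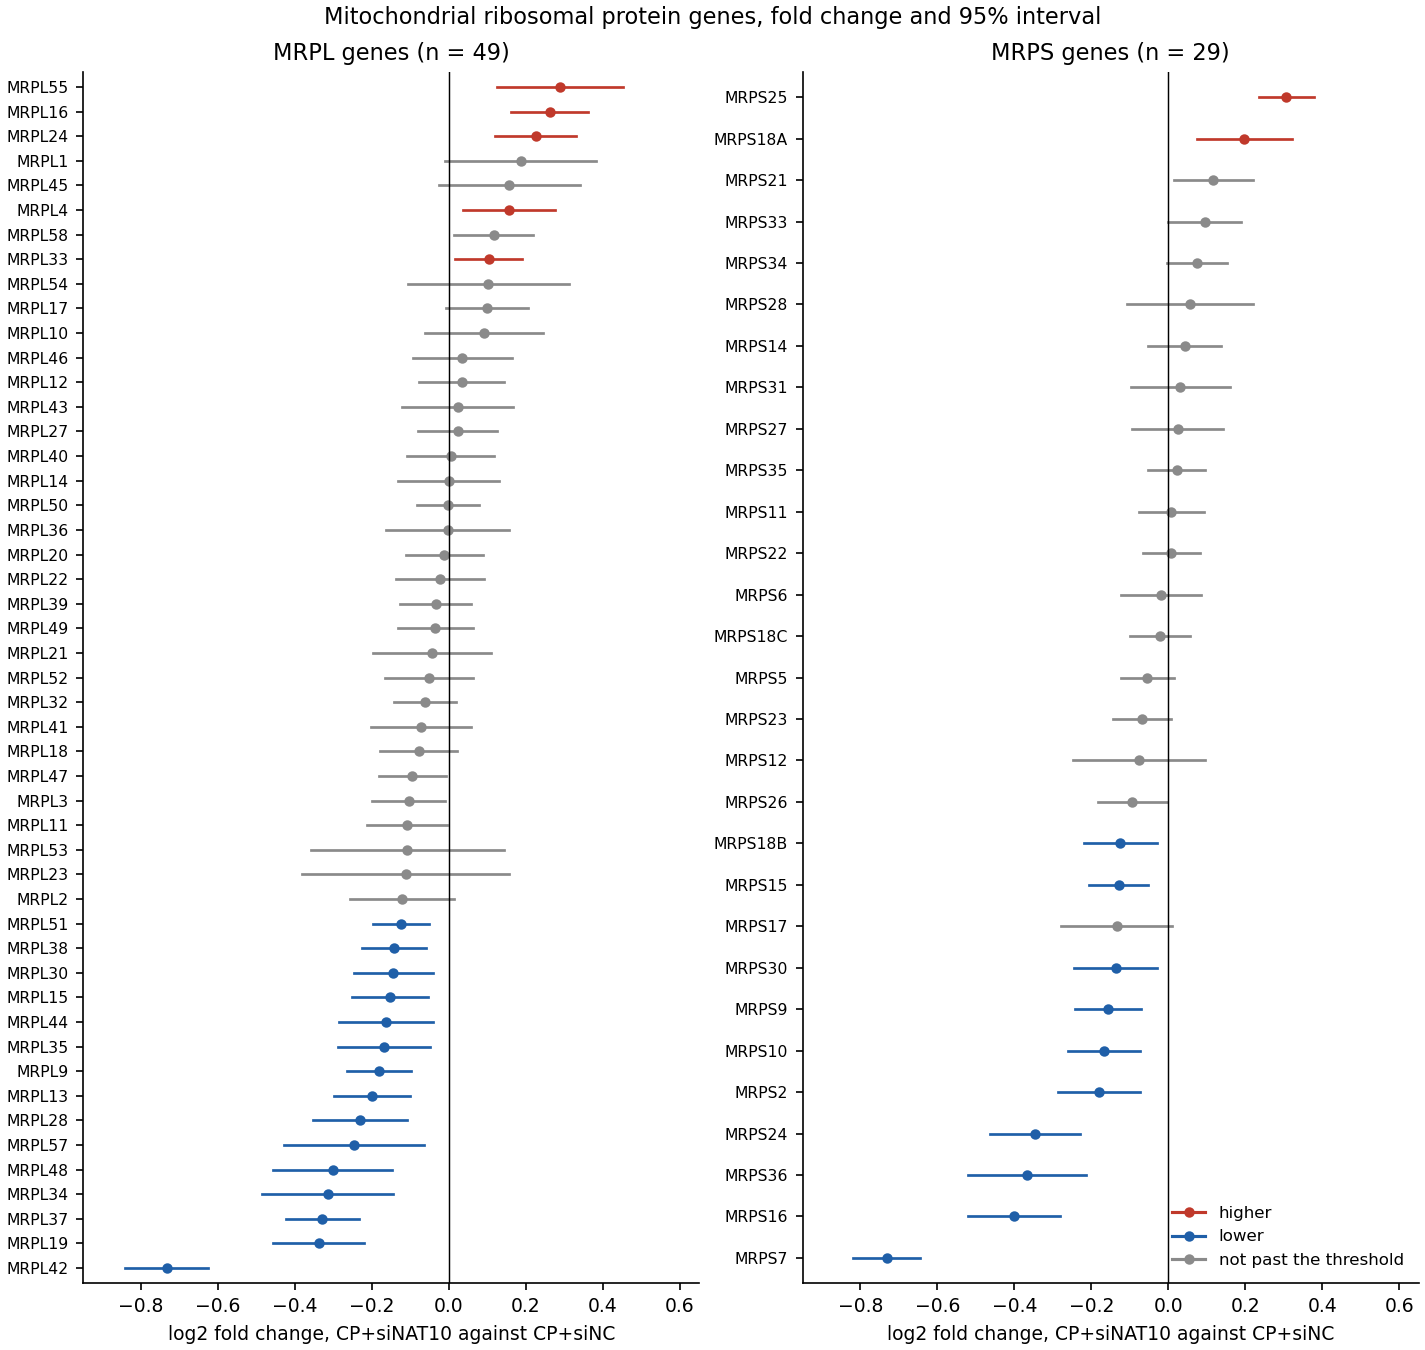
Log2 fold change of each of the 49 MRPL and 29 MRPS genes, with CP+siNAT10 above CP+siNC to the right of 0. Points are estimates, bars are 95% intervals, and colours give the call at an adjusted p under 0.05. MRPL42 and MRPS7, both at −0.73, stand apart from all other members.

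Of the 49 MRPL genes, 5 were higher, 15 lower and 29 not called, with a median of −0.052. Of the 29 MRPS genes, 2 were higher, 10 lower and 17 not called, with a median of −0.055. The shares called were 40.8% and 41.4%, against 44.1% of all tested genes. Among MRPL genes 10.2% were higher and 30.6% lower, among MRPS genes 6.90% and 34.5%, where 21.8% and 22.3% of all tested genes were. The difference between the subunits was not tested. Both medians were below 0 in each of the 14 alternatives, but their size moved with the scaling, to −0.015 for MRPL and −0.017 for MRPS with library size alone, where the median over all tested genes was 0.044 in place of 0.0070, and to −0.019 and −0.074 with the trend in gene length removed. It also moved with single libraries: the MRPL median was −0.070 without CP+siNAT10 replicate 1, and the MRPS median was −0.035 with CP+siNC replicate 2 left out and −0.031 with CP+siNAT10 replicate 2 left out. The counts of higher genes changed when 1 library was left out: without CP+siNC replicate 2, or without any one of the CP+siNAT10 replicates, 3 MRPL genes were higher, and without CP+siNAT10 replicate 1, 1 MRPS gene was higher.

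Summed over the large-subunit names, the level was 1744, 1722 and 1740 CPM in the CP+siNC libraries and 1681, 1629 and 1646 CPM in the CP+siNAT10 libraries. Summed over the small-subunit names, it was 1736, 1733 and 1739 CPM in CP+siNC and 1698, 1658 and 1658 CPM in CP+siNAT10. With TMM scaling each CP+siNAT10 library was below each CP+siNC library in both subunits. The group means were 1735 ± 11.5 and 1652 ± 26.5 CPM for MRPL (SD, n = 3), so the sum in CP+siNAT10 was 95.2% of the control. For MRPS the means were 1736 ± 2.92 and 1671 ± 22.8 CPM (SD, n = 3), 96.2% of the control. MRPS7 alone went from a mean of 115 to 69.5 CPM, so much of the MRPS difference came from this 1 gene. As shares of all counts, without TMM, the groups overlapped. MRPL made up 0.1699%, 0.1706% and 0.1721% of the counts in CP+siNC and 0.1702%, 0.1654% and 0.1657% in CP+siNAT10, and MRPS 0.1692%, 0.1718% and 0.1721% in CP+siNC and 0.1719%, 0.1683% and 0.1669% in CP+siNAT10. No test was made of these sums, and their fall depends on the scaling.

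**Figure D2:**
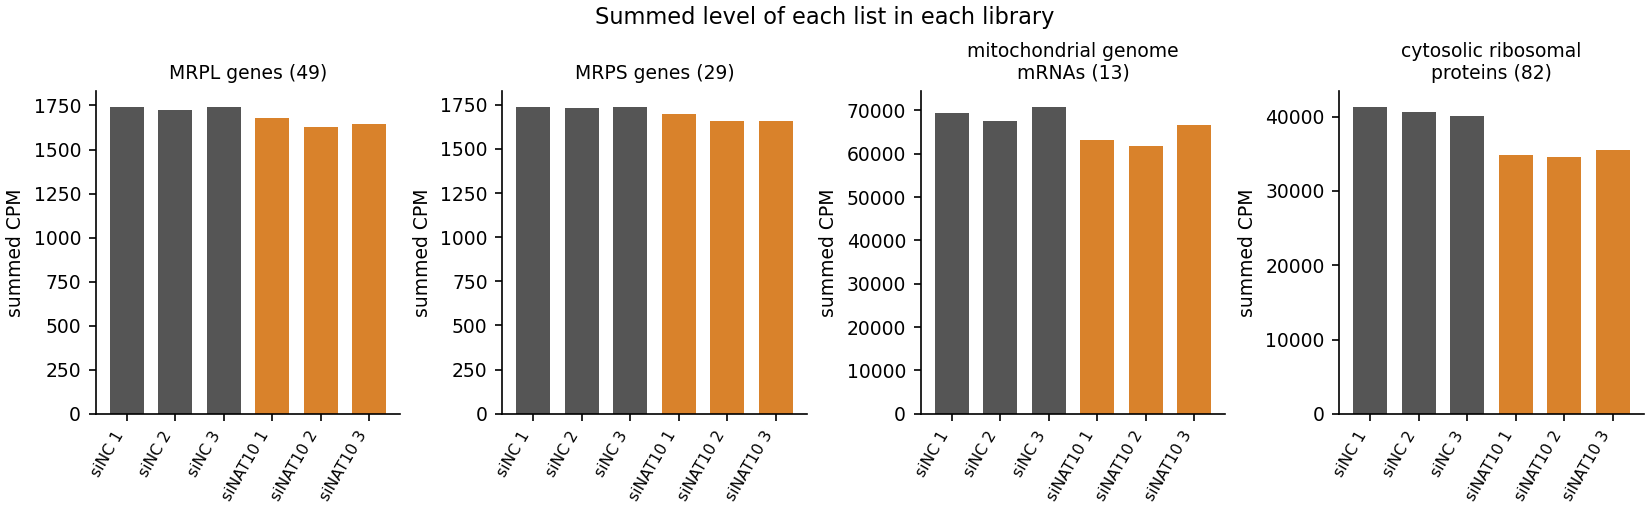
Summed level in CPM of the 49 MRPL genes, the 29 MRPS genes, the 13 protein-coding genes of the mitochondrial genome and the 82 cytosolic ribosomal protein genes, with 1 bar for each library (grey, CP+siNC; orange, CP+siNAT10). With TMM scaling the CP+siNAT10 sums were 95.2%, 96.2%, 92.1% and 85.9% of the control means, in that order. Within the MRPS sum, MRPS7 alone went from a mean of 115 to 69.5 CPM. As shares of all counts, the groups overlapped for the MRPL, MRPS and mitochondrial genome lists.

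The largest fall among the MRPS genes was that of MRPS7. Its product belongs to the head of the small subunit and has a bacterial counterpart that organises the rRNA there. It was at 119, 108 and 120 CPM in the CP+siNC libraries and at 72.3, 69.1 and 67.1 CPM in the CP+siNAT10 libraries. The groups were far apart, with CP+siNAT10 at 60.2% of the control mean (log2 fold change −0.73, SE 0.042; adjusted p = 2.9e-14 by edgeR's quasi-likelihood test, Benjamini-Hochberg adjusted). The gene lies on chromosome 17 (GRCh38, chr17:75261674-75266363, plus strand). On the opposite strand it overlaps GGA3, which was higher (log2 fold change 0.33), and MIF4GD, which was lower (log2 fold change −0.68) but had 798 counts over all libraries against 11587 for MRPS7.

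MRPS16 and MRPS24 also have bacterial counterparts, in the body of the subunit and at the mRNA entry. MRPS16 was at 23.6, 23.6 and 23.5 CPM in CP+siNC and at 17.9, 17.3 and 18.3 CPM in CP+siNAT10, a fitted fall to 75.7% of the control (log2 fold change −0.40, SE 0.059). MRPS24 was at 25.1, 26.2 and 26.2 CPM in CP+siNC and at 19.9, 19.7 and 21.3 CPM in CP+siNAT10, or 78.6% (log2 fold change −0.35, SE 0.057). In both genes all 3 CP+siNAT10 libraries were below all CP+siNC libraries, and the adjusted p-values were 1.8e-06 and 1.1e-05 by edgeR's quasi-likelihood test, Benjamini-Hochberg adjusted. The value for MRPS24 is uncertain, because the readthrough gene URGCP-MRPS24 spans it on the same strand, had more counts (3858 against 2924 over all libraries) and was not called (log2 fold change −0.053). MRPS16 overlaps DNAJC9-AS1 on the opposite strand, which had 827 counts against 2622 and was also lower (log2 fold change −0.31). Another entry of DNAJC9-AS1 starts 157 bases from MRPS16 and was not called (−0.17).

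MRPS36 keeps a ribosomal name, but its product is now assigned to the 2-oxoglutarate dehydrogenase complex of the citric acid cycle. It was at 14.4, 13.8 and 13.7 CPM in CP+siNC and at 11.21, 10.84 and 10.49 CPM in CP+siNAT10. The groups did not overlap, and the fitted level was 77.5% of the control (log2 fold change −0.37, SE 0.075; adjusted p = 0.00019 by edgeR's quasi-likelihood test, Benjamini-Hochberg adjusted).

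MRPS25, a small-subunit protein without a bacterial counterpart, rose. It was at 112, 117 and 112 CPM in the CP+siNC libraries and at 142, 142 and 139 CPM in the CP+siNAT10 libraries. All CP+siNAT10 libraries were above all CP+siNC libraries, at 124% of the control mean (log2 fold change 0.31, SE 0.035; adjusted p = 2.4e-08 by edgeR's quasi-likelihood test, Benjamini-Hochberg adjusted). Its span holds 2 other genes with many counts, the unnamed gene ENSG00000289750 on the same strand and NR2C2 on the opposite strand, and both were also higher (log2 fold changes 0.18 and 0.28), so reads of the 3 genes may not be separate. With the trend in gene length removed its log2 fold change was 0.19, below those of MRPL55 (0.34) and MRPL16 (0.31) in the same fit.

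The MRPS18 paralogs, a family of 3 related genes, did not share a direction. MRPS18A was at 26.0, 25.6 and 27.7 CPM in CP+siNC and at 33.5, 29.6 and 28.1 CPM in CP+siNAT10, with groups that did not overlap (log2 fold change 0.20, SE 0.060; adjusted p = 0.0084 by edgeR's quasi-likelihood test, Benjamini-Hochberg adjusted). Its call was lost in DESeq2 (0.20) and when CP+siNC replicate 2 (0.17) or CP+siNAT10 replicate 1 (0.13) was left out. MRPS18B was at 45.1, 43.7 and 44.9 CPM in CP+siNC and at 42.3, 39.1 and 41.2 CPM in CP+siNAT10 (log2 fold change −0.12, SE 0.046). It was lower without overlap of the groups, but only 7 of the 14 alternatives called it. Leaving out CP+siNC replicate 1 (−0.12) or 3 (−0.12) or CP+siNAT10 replicate 2 (−0.094) removed the call. MRPS18C, the paralog closest to the bacterial protein, had a log2 fold change of −0.023 (SE 0.038) and did not pass the test. In structures of the ribosome the MRPS18A product sits in the large subunit, despite its symbol, as does that of MRPS30.

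In the large subunit, MRPL42 showed the largest fall. Its product is specific to mitochondria. It was at 38.9, 36.5 and 36.1 CPM in the CP+siNC libraries and at 21.7, 23.2 and 22.2 CPM in the CP+siNAT10 libraries. The highest CP+siNAT10 library was well below the lowest CP+siNC library, and the mean was 60.2% of the control (log2 fold change −0.73, SE 0.053; adjusted p = 3.3e-12 by edgeR's quasi-likelihood test, Benjamini-Hochberg adjusted). The gene lies on chromosome 12 (GRCh38, chr12:93467514-93502864, plus strand), and no other gene of the table spans it with 10% or more of its counts.

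MRPL19, a protein with a bacterial counterpart, was at 25.81, 26.34 and 23.99 CPM in CP+siNC and at 20.09, 20.13 and 20.04 CPM in CP+siNAT10 (log2 fold change −0.34, SE 0.058). MRPL37, specific to mitochondria, was at 46.20, 49.79 and 50.001 CPM in CP+siNC and at 38.5, 38.8 and 39.1 CPM in CP+siNAT10 (log2 fold change −0.33, SE 0.046). Both were lower in every CP+siNAT10 library than in any CP+siNC library, at 79.1% and 79.6% of the control means. The adjusted p-values were 1.8e-05 and 9.5e-07 by edgeR's quasi-likelihood test, Benjamini-Hochberg adjusted. The other 12 MRPL genes called lower had log2 fold changes between −0.32 and −0.12.

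The MRPL genes that rose encode proteins with bacterial counterparts. MRPL16 lies near the site of peptide bond formation and was at 31.8, 31.3 and 30.3 CPM in CP+siNC and at 38.0, 36.1 and 37.9 CPM in CP+siNAT10 (log2 fold change 0.26, SE 0.049). MRPL24, near the opening of the exit tunnel, was at 32.2, 35.3 and 31.5 CPM in CP+siNC and at 40.0, 38.3 and 37.6 CPM in CP+siNAT10 (log2 fold change 0.22, SE 0.051). The groups did not overlap for either gene, and the adjusted p-values were 6.3e-05 and 0.00066 by edgeR's quasi-likelihood test, Benjamini-Hochberg adjusted.

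MRPL55, whose bacterial relative lies where the subunits meet, was at 10.2, 9.86 and 9.55 CPM in CP+siNC and at 11.9, 11.6 and 12.5 CPM in CP+siNAT10 (log2 fold change 0.29, SE 0.080), and DESeq2 did not call it (0.29). MRPL4, which lines the exit tunnel, was at 23.3, 20.8 and 23.7 CPM in CP+siNC and at 25.2, 24.8 and 25.2 CPM in CP+siNAT10 (log2 fold change 0.16, SE 0.058). The groups did not overlap for either. The call of MRPL4 was lost in DESeq2 (0.15) and when 1 library was left out, namely CP+siNC replicate 2 (0.092) or CP+siNAT10 replicate 1 (0.15), replicate 2 (0.16) or replicate 3 (0.15). On the opposite strand MRPL4 overlaps LIMASI, which had more counts (3413 against 3053) and was lower (log2 fold change −0.37).

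**Figure D3:**
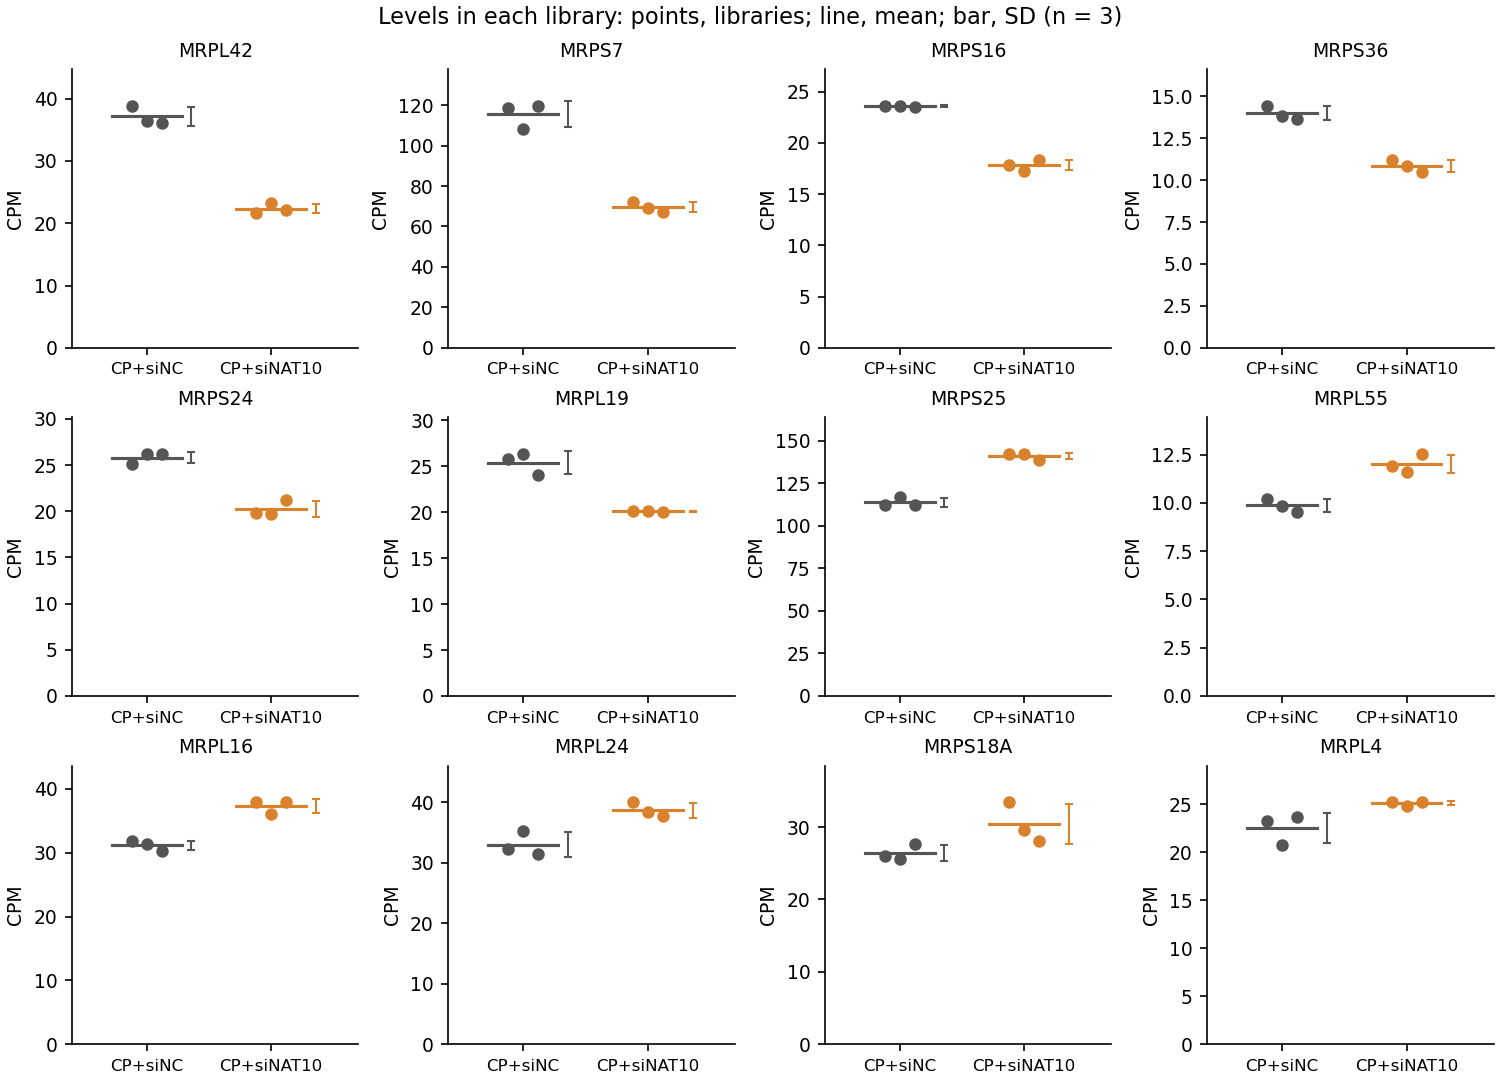
Level in CPM of the 6 members with the largest falls and the 6 with the largest rises among those called whose groups do not overlap. Each point is a library, the line is the group mean and the bar beside it the SD (n = 3 in each group); every vertical axis starts at 0. MRPL42 and MRPS7 in CP+siNAT10 stood at 60.2% of the control, and the rise of MRPS25 reached 124%.

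The members nearest the threshold show how narrow some calls are. MRPL33 (log2 fold change 0.10, adjusted p = 0.049), MRPS30 (−0.14, adjusted p = 0.036) and MRPL4 were called with the largest adjusted p-values in edgeR's quasi-likelihood test, Benjamini-Hochberg adjusted. MRPS21 (0.12, adjusted p = 0.058), MRPL58 (0.12, adjusted p = 0.064) and MRPL47 (−0.096, adjusted p = 0.068) missed it by the same test. MRPL58 is related to bacterial release factors and frees stalled chains. The call of MRPL33 was lost in 11 of the 14 alternatives, among them each of the 6 fits without 1 library, where its log2 fold change ran from 0.087 to 0.11. MRPS30 was lost in 7 of 14, among them the fits that left out CP+siNC replicate 1 (−0.13) or 3 (−0.11), or CP+siNAT10 replicate 1 (−0.13) or 2 (−0.11). MRPS21 was called when CP+siNC replicate 2 (0.14) or CP+siNAT10 replicate 3 (0.15) was left out, MRPL58 without CP+siNC replicate 1 (0.15), and MRPL47 without CP+siNAT10 replicate 1 (−0.12). Both MRPS21 and MRPL58 were also called with library size alone and with the trend in gene length removed. With the replicate number as a block MRPS21 was called too, and with a stricter filter on low counts MRPL47 was.

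Split by origin, 46 members have a bacterial counterpart and 31 are specific to mitochondria, with MRPS36 in neither class. Of the first class, 5 were higher and 15 lower, with a median log2 fold change of −0.070. Of the mitochondria-specific class, 2 were higher and 9 lower, with a median of −0.035. The shares called were 43.5% and 35.5%, against 44.1% of all tested genes. The difference between the classes was not tested, and each holds a strong fall, MRPS7 in the first and MRPL42 in the second.

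Levels of different genes are compared per kilobase of gene model (RPKM). The lengths in the table merge all isoforms, and 5 members had gene models longer than 10 kilobases, so a low value per kilobase can come from a long gene model. The median was 11.9 RPKM for MRPL and 13.8 RPKM for MRPS, while that of the cytosolic ribosomal proteins was 86.1 RPKM. Among the MRPL genes, MRPL51 (113 RPKM) and MRPL41 (43.4 RPKM) were highest and MRPL42 (1.82 RPKM) and MRPL23 (1.32 RPKM) lowest. Among the MRPS genes, MRPS34 (68.1 RPKM) and MRPS26 (65.2 RPKM) were highest, and MRPS30 (5.02 RPKM) and MRPS27 (1.39 RPKM) lowest. Per kilobase, the highest MRPL value was thus 85.7 times the lowest and the highest MRPS value 49.1 times the lowest. Gene length entered the MRPS range. The models of MRPS34 and MRPS27 have 1092 and 19524 bases, and their CP+siNC means were 72.5 and 26.8 CPM. The models of MRPL51 and MRPL23 have 1388 and 2975 bases, and their CP+siNC means were 164 and 4.09 CPM.

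Of these abundant members, MRPL51 was called lower (log2 fold change −0.12, SE 0.035) and lost the call only where the trend in gene length was removed (−0.077). MRPL41 (−0.071), MRPS34 (0.074) and MRPS26 (−0.094) did not pass the test. MRPS34 was called higher with library size alone (0.11) and with the trend in length removed (0.12), and MRPS26 was called lower without CP+siNC replicate 1 (−0.13). MRPL23 (−0.11) and MRPS27 (0.025) were not called.

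**Figure D4:**
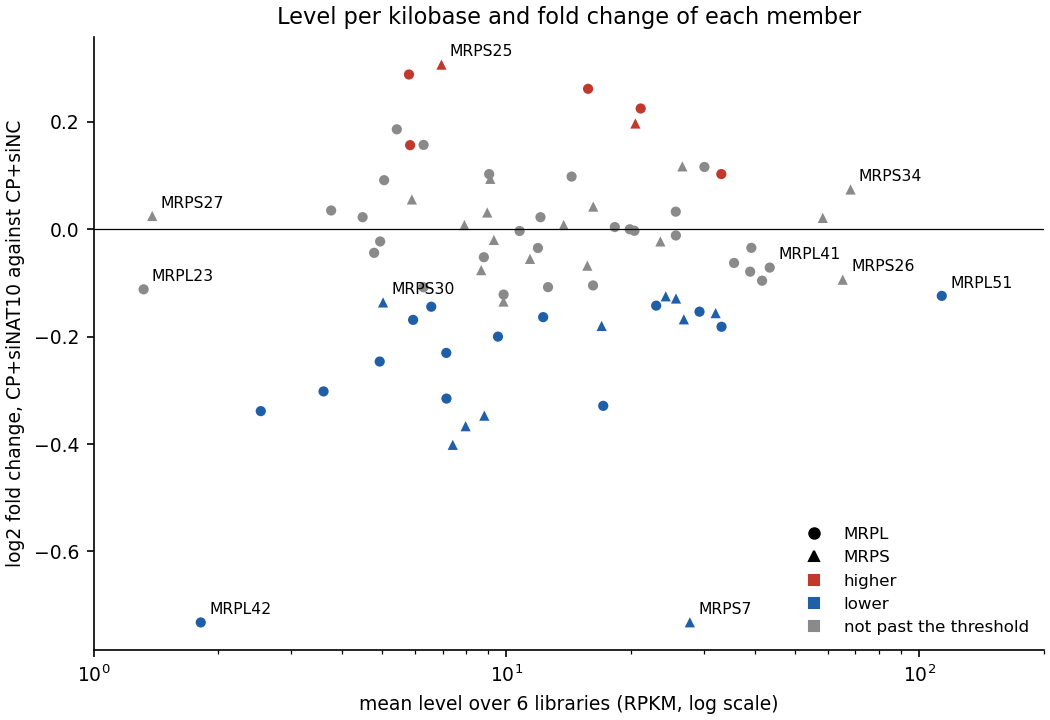
Mean level over the 6 libraries in RPKM (log axis) against log2 fold change for the 78 members, with circles for MRPL, triangles for MRPS and colours for the call. The members called lower span low to high values per kilobase, from MRPL42 at 1.82 RPKM, with a gene model of 16368 bases, to MRPL51 at 113 RPKM.

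The counts of some members can hold reads of other genes. Another gene with at least 10% of the member's counts spanned 14 members on the same strand and a further 23 on the opposite strand only, and the sources used here do not say whether the counting used strand, although the library kit keeps it. Among the 41 members without such a gene, 5 were higher and 11 lower, with a median log2 fold change of −0.035. Of these members 39.0% were called, against 44.1% of all tested genes. The shares were 12.2% higher and 26.8% lower, against 21.8% and 22.3% of all tested genes. Beside the overlaps given above, opposite-strand genes spanned MRPL19 (GCFC2, −0.19), MRPL37 (SSBP3, 0.37, and CYB5RL, 0.45), MRPL51 (NCAPD2, 0.089), MRPS18B (PPP1R10, −0.24), MRPS18C (ABRAXAS1, −0.18), MRPS27 (PTCD2, 0.12) and MRPS34 (EME2, 0.0053), with log2 fold changes in brackets. On the same strand, ENSG00000273155 (−0.13) and ENSG00000241962 (−0.14) spanned MRPL30, with 2772 and 3120 counts against 3984. MRPL46 was spanned on its strand by ENSG00000173867 (−0.020), with 982 counts against 3080. What such reads add to the members' values was not tested. The table also lists 81 pseudogenes of 36 members, but only 4 of them had at least 10% of the parent's counts. They are 3 pseudogenes of MRPS31 and 1 of MRPL45, and neither parent was called (log2 fold changes 0.031 and 0.16).

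Many of these genes start back to back with another gene. Within 500 bases and on opposite strands, 26 members had such a partner among the tested genes, in 27 pairs. The fold changes had the same sign in 19 pairs, and in 3 pairs both genes were called. No share was computed over all such pairs of the genome, and 44.1% of all tested genes were called, so no link between partners is read from these counts. The pairs named here were chosen after their values were seen. MRPS11 and MRPL46, which share a start region with 64 bases between their starts, had log2 fold changes of 0.0079 (SE 0.041) and 0.035 (SE 0.062), and neither was called. MRPL30 (−0.14) and MITD1 (−0.29), with starts 102 bases apart, were both lower, and so were MRPL57 (−0.25) and SKA3 (−0.17), with starts 110 bases apart. Those calls were not stable. Both were lost in DESeq2 and with library size alone, MRPL30 also without a filter and MRPL57 also with the trend in length removed. MRPL30 lost its call without CP+siNC replicate 1 or CP+siNAT10 replicate 2 too, and MRPL57, whose groups overlapped, without CP+siNC replicate 1 or CP+siNAT10 replicate 2 or 3. Over the 14 alternatives their log2 fold changes ran from −0.16 to −0.11 and from −0.34 to −0.17. In contrast, MRPL51 (−0.12) and NCAPD2 (0.089), whose spans overlap, moved in opposite directions.

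Promoter windows were available for 69 of the 78 members in the RefSeq table (GRCh38.p14), which gives 250 bases before and 50 bases after each start. They were searched on both strands for motifs of factors known to act on genes of mitochondrial proteins. CCGGAAG, a motif of ETS factors such as GABP, occurred in 29 of the 69 windows (42.0%) and in 10.7% of all 27305 promoters of the table. AAGATGG, a motif of YY1, occurred in 23 (33.3%) and in 6.06% of all. GCATGCGC, a motif of NRF1, occurred in 6 (8.70%) and in 3.27% of all, and the CCAAT box in 20 of the 69 and in 35.7% of all. A match is a description of the letters and not a binding site. The median log2 fold change was −0.076 among members with AAGATGG and −0.010 among those without it, and for CCGGAAG the medians were −0.023 and −0.045. Neither difference was tested.

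Windows from 100 bases before to 30 bases after the start are shown for 3 members with strong falls, for MRPS25 and MRPL16, which rose, and for the neighbours MRPS11 and MRPL46. RefSeq starts can differ from the gene starts in the count table, as they do for MRPS7 and MRPS11, so the MRPS11 window is not at the start that lies 64 bases from MRPL46. Each is written 5′ to 3′ along the gene in lower case, with motif matches in capitals. They lie at chr17:75261779-75261908 (plus strand, MRPS7), chr12:93467414-93467543 (plus, MRPL42), chr10:73252615-73252744 (minus, MRPS16), chr3:15065286-15065415 (minus, MRPS25), chr11:59810749-59810878 (minus, MRPL16), chr15:88467608-88467737 (plus, MRPS11) and chr15:88467359-88467488 (minus, MRPL46).
MRPS7: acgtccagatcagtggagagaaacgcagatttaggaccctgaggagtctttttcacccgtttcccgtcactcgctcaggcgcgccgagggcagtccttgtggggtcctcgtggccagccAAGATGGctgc
MRPL42: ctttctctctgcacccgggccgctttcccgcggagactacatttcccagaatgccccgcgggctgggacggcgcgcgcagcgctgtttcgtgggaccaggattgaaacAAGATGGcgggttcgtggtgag
MRPS16: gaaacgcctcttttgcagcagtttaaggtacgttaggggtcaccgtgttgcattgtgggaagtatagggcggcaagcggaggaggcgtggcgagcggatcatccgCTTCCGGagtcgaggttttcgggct
MRPS25: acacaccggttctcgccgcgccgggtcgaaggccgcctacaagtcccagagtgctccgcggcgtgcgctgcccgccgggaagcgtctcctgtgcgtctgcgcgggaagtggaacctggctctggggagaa
MRPL16: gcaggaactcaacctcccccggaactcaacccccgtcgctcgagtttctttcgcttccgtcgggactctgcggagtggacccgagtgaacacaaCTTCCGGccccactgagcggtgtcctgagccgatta
MRPS11: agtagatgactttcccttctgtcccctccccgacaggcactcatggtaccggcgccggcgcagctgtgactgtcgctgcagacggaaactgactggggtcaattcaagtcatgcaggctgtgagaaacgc
MRPL46: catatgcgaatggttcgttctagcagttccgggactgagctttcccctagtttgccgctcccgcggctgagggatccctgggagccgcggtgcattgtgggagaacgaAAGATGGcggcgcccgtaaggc
MRPS7 and MRPL42, which fell, and MRPL46, which did not change beyond its error, all hold AAGATGG shortly after the start. MRPS16, which fell, and MRPL16, which rose, both hold the reverse complement of CCGGAAG at or next to the start. The windows of MRPS25 and MRPS11 hold none of the motifs. These windows were picked by hand and do not stand for all members. Among the 23 members with AAGATGG, 9 were lower and 1 higher, and among the others with a window, 12 were lower and 6 higher. Among the 29 members with CCGGAAG, 7 were lower and 3 higher, and among the others 14 were lower and 4 higher. Of all tested genes, 22.3% were lower and 21.8% higher. A part of these motifs in the changes was not tested.

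Other components of the mitochondrial ribosome have symbols outside MRPL and MRPS. Of these 5 genes, PTCD3, a small-subunit protein that binds RNA, rose from 50.7 ± 1.68 to 58.8 ± 0.36 CPM (SD, n = 3; log2 fold change 0.21), and DAP3, a GTP-binding protein of the small subunit, fell from 139 ± 2.46 to 127 ± 3.19 CPM (log2 fold change −0.13). CHCHD1 (−0.10), GADD45GIP1 (0.063) and AURKAIP1 (−0.025) did not pass the test. CHCHD1 was called lower when CP+siNC replicate 2 (−0.15) or CP+siNAT10 replicate 1 (−0.13) was left out, and GADD45GIP1 was called higher with library size alone (0.10) and with the trend in length removed (0.11).

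The 2 rRNAs of the mitochondrial ribosome come from the mitochondrial genome. MT-RNR2, the large-subunit rRNA, was at 14299, 13638 and 13400 CPM in CP+siNC and at 16068, 15710 and 18006 CPM in CP+siNAT10. The groups did not overlap (log2 fold change 0.27, SE 0.044; adjusted p = 9.1e-06 by edgeR's quasi-likelihood test, Benjamini-Hochberg adjusted). MT-RNR1, the small-subunit rRNA, was at 367, 347 and 286 CPM in CP+siNC and at 313, 307 and 305 CPM in CP+siNAT10, with groups that overlapped and no call (−0.11, SE 0.052). It was called lower without CP+siNC replicate 3 (−0.22), its lowest control, and without a filter on low counts (−0.10). The kit selects mRNA, so the levels of these rRNAs depend on how they passed that step.

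This ribosome translates the mRNAs of the mitochondrial genome. Of the 13 protein-coding genes of that genome, 8 were lower and 1 higher, where 22.3% of all tested genes were lower and 21.8% higher, with a median log2 fold change of −0.15. MT-ND6 (−0.49), MT-ND3 (−0.43) and MT-ND5 (−0.36), all encoding subunits of complex I, had the smallest p-values. The sum of all 13 genes was 69285 ± 1655 CPM in CP+siNC and 63811 ± 2469 CPM in CP+siNAT10 (SD, n = 3). As shares of all counts, without TMM, the groups overlapped, with CP+siNC replicate 2 at 6.69606% and CP+siNAT10 replicate 3 at 6.69627%.

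Genes that build or serve the mitochondrial ribosome are read against all tested genes, of which 44.1% were called, 21.8% higher and 22.3% lower. Of 33 tested entries for 32 genes of assembly and rRNA modification, with GTPBP6 listed under 2 identifiers, 10 were higher and 4 lower (42.4% called), with a median of 0.097. RPUSD4, a pseudouridine synthase of the large-subunit rRNA, rose (log2 fold change 0.59), as did RBFA, which matures the small subunit (0.43), while C1QBP, a matrix protein, fell (−0.44). Of 17 translation factors, 6 were higher and 3 lower (52.9% called), with a median of 0.026. GFM1, the elongation factor that moves the ribosome along the message, fell (−0.54), and MTIF3, an initiation factor, rose (0.29). LRPPRC, which stabilises mitochondrial mRNAs, rose (0.19) but was not called with the trend in length removed (0.039).

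Of 20 genes for charging mitochondrial tRNAs, 5 were higher and 2 lower, where 44.1% of all tested genes were called, with a median of 0.085, and EARS2 (0.47), AARS2 (0.25) and GATB (0.47) rose. Of 15 genes for mitochondrial transcription and its nuclear regulators, 5 were higher and 3 lower, with a median of 0.00026. TFAM, which packages mitochondrial DNA and starts its transcription, was at 148, 142 and 145 CPM in CP+siNC and at 74.9, 77.7 and 78.7 CPM in CP+siNAT10. The groups were far apart, with a fitted CP+siNAT10 level of 53.3% of the control (log2 fold change −0.91, SE 0.036). YY1 (0.26) and PPRC1, a coactivator of nuclear genes for mitochondria (0.25), rose.

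The ribosomal proteins of the cytosol were described in the same way. Of 82 cytosolic ribosomal protein genes tested, 70 were lower and 1 higher, where 22.3% of all tested genes were lower and 21.8% higher, with a median log2 fold change of −0.22, against 25 lower and 7 higher of 78 and a median of −0.054 for the mitochondrial set. Their summed level fell from 40692 ± 610 to 34973 ± 493 CPM (SD, n = 3), or to 85.9% of the control, where that of the 78 mitochondrial genes was 95.7% of it. RPS7 (−0.80), RPLP1 (−0.60) and RPS27L (−0.79) had the smallest p-values of that list. The list was taken by symbol and also holds paralogs such as RPS27L and RPL26L1. RPL26L1 (0.39) was the gene called higher. The difference between the lists was not tested.

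**Figure D5:**
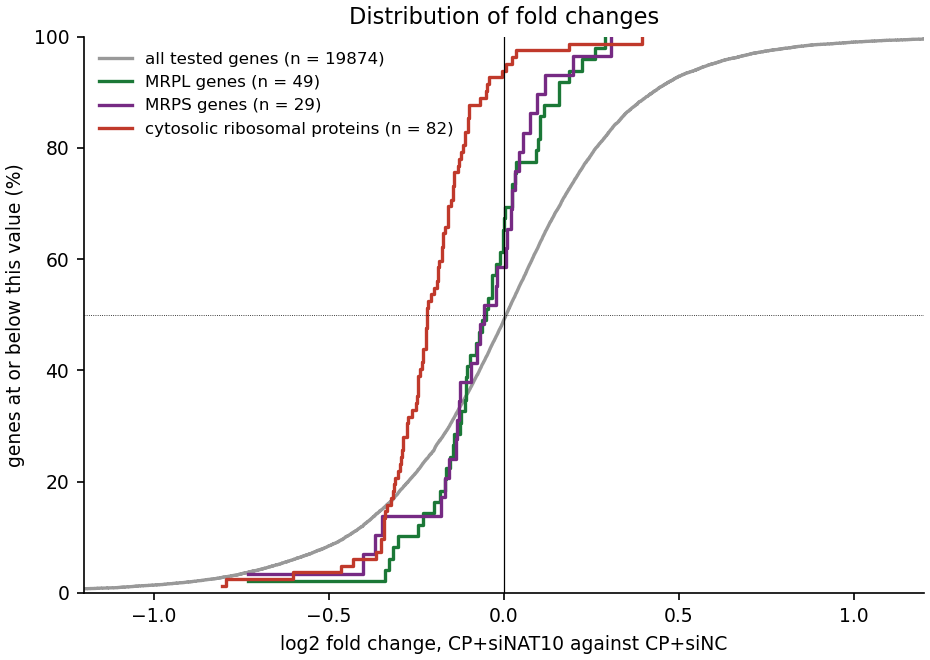
Share of genes (%) at or below each log2 fold change for all 19874 tested genes, the 49 MRPL genes, the 29 MRPS genes and the 82 cytosolic ribosomal protein genes. The MRPL and MRPS lines rise steeply close to 0, with medians of −0.052 and −0.055, while the cytosolic line lies to the left with a median of −0.22 and the line of all genes is wider.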

How the data were processed

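RNA from 6 libraries of Cisplatin-treated HK-2 cells was compared, 3 with negative control siRNA and 3 with NAT10 siRNA, and groups and replicate numbers were taken from the labels. The deposited values are raw counts per gene that the authors obtained with featureCounts. The submitters' processing notes name Trimmomatic 0.36, STAR 2.5.3a, Subread 1.5.1, edgeR 3.12.1 and the build GRCh38. The kit adds molecular identifiers, meant for the correction of duplicate reads. Whether duplicates were merged before counting, how reads that fit several genes were counted and the annotation release are not given in the sources used here. Unmerged copies would add to the spread between replicates.

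The work on the counts used edgeR 4.0.16, with limma 3.58.1, under R 4.3.3. The filterByExpr filter (minimum count 10, minimum total 15) kept 19874 of 62754 genes and 99.79% to 99.81% of the counts of each library. Libraries were scaled by TMM, and groups were compared with glmQLFit and glmQLFTest over all these genes, without a term for the replicate number. An adjusted p under 0.05 was a call. Standard errors were derived from each F value. Totals of 19321665 to 25192736 counts set the precision, and members with few counts, such as MRPL23, had the widest intervals. Between replicates of a group the counts differed by more than sampling noise (chi-square per gene 1.74 to 2.55), so no library was counted as a copy of another.

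The members and lists were chosen with earlier results of these data known. The genes named are NAT10, the 6 largest rises and 6 largest falls among members called whose groups do not overlap, the 5 members with the smallest p, the 2 highest and 2 lowest per kilobase in each subunit, the 3 members on each side of the threshold, the MRPS18 paralogs, up to 3 genes with the smallest p of each other list, and all mitochondrial rRNAs and mitoribosome proteins with other symbols. Any other gene named was chosen after its values were seen, as were the splits by overlapping genes, pseudogenes and neighbouring starts.

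Alternatives were RLE, upper quartile and library size scaling, no filter and a stricter one (minimum count 50), the replicate number as a block, DESeq2 1.42.0, removal of a trend in gene length, and each library left out. The programs were tested on simulated data. Promoters came from RefSeq (GRCh38.p14) and were searched, and plots drawn, with Python 3.11.15, pandas 2.3.3, numpy 2.4.6 and matplotlib 3.10.9. No sample was left out.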

Additional observations from a re-analysis of the deposited data

How the results depend on the processing

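Over the 14 alternatives, 19 of the 32 called members were called each time, 3 higher and 16 lower, and NAT10 was lower throughout (−0.85 to −0.79). With library size alone, 5 MRPS genes were higher and the medians were −0.015 for MRPL and −0.017 for MRPS. With the trend in gene length removed, 8 MRPL and 4 MRPS genes were higher and the medians were −0.019 and −0.074. DESeq2 gave 2 higher MRPL genes and 1 higher MRPS gene, and 21 called members in all, each shared with the 32. The cause of these shifts was not tested. With 1 library left out, 3 to 5 MRPL and 1 to 3 MRPS genes were higher, and the medians ran from −0.070 to −0.037 for MRPL and from −0.064 to −0.031 for MRPS. Fits with fewer libraries called fewer members, 26 to 30. With the replicate number as a replicate block, 8526 genes were called in place of 8771, and 31 of the 32 members were still called. MRPL33 lost its call and MRPS21 gained one (log2 fold changes 0.10 and 0.12). Libraries with the same number did not deviate together (correlations across 12304 genes of 0.0081, 0.064 and −0.21), and not every library correlated best with its own number, so the numbers are not taken to pair the samples. Depth limits the members with few counts. MRPL23, with a standard error of 0.13, could not show a change of the size seen in most called members.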
